A study of Mus musculus with 4 samples.

Results

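Open chromatin around 7 mouse genes for the uptake of vitamin A, folate, calcium and vitamin B12 was compared between stem cells of the small and the large intestine. The genes were Rbp2 and Bco1 (vitamin A), Slc46a1 (folate), Trpv6 and S100g (calcium), and Cubn and Amn (vitamin B12). Overlapping peaks (by 1 bp or more) of 4 ATAC-seq libraries were joined into regions. Every region in one of these genes or within 100 kb of it was taken. This gave 159 regions of 119965 in the whole series. ATAC-seq marks accessible DNA by the insertion of sequencing adapters with Tn5 transposase. The libraries came from 2 groups with 2 replicates each, sorted from crypts of mice aged 6 to 12 weeks that carried the Lgr5-EGFP-IRES-creERT2 allele, in which EGFP reports Lgr5, a receptor of crypt base stem cells. Small-intestinal stem cells (SISC) were Lgr5-EGFP positive and CD24 negative, taken near the pylorus and near the cecum, which the labels do not keep apart. Large-intestinal stem cells (LISC) were Lgr5-EGFP positive, from cecum to rectum, with no CD24 gate named, so tissue and gate cannot be told apart. Neither group had a treatment. Whether the replicates are different animals is not stated in the labels, and their spread may be partly technical.

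These genes serve steps of nutrient uptake that are known mainly from mature absorptive cells of the villus. Retinol is trapped in the enterocyte by the binding protein RBP2 after BCO1 has cleaved dietary carotenoids. Folate enters through the proton-coupled transporter SLC46A1, calcium through the apical channel TRPV6 with calbindin-D9k (S100g) as its carrier in the cytosol, and vitamin B12 bound to intrinsic factor through the receptor formed by cubilin and amnionless in the ileum. The stem cells studied here give rise to these absorptive cells, and accessible DNA in them is not a measure of the genes' expression.

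Each list held 83443 to 93220 peaks, and read depth is unknown. The values used are those of the authors' peak caller, the −log10 q of a peak and its fold enrichment over the local background of its own library, and the absence of a call does not show closed DNA. SISC-only regions are those with a peak in each SISC library and none in LISC, and LISC-only regions the opposite. Gene starts (within 1 kb) of 8 epithelial markers were called in all libraries, and those of 8 stem cell markers at 8 genes in each SISC library and 7 in each LISC library. Immune starts were called at 2 and 1 of 8 genes in SISC and 2 and 1 in LISC, with none at Ptprc, Cd3e, Cd3g, Itgam or Csf1r. Starts of mature enterocyte markers were called at 6 of 8 genes in each SISC library and 4 in each LISC library, those of mature colonocyte markers at 4 in each SISC library and 6 in each LISC library, goblet markers at 6 and 6 of 8 in SISC and 6 and 7 in LISC, Paneth markers at 3 and 3 of 6 in SISC and 2 and 3 in LISC, and stromal, endothelial and muscle markers at 4 and 4 of 8 in SISC and 3 and 2 in LISC. The part of other cell types in the differences below was not tested. Peaks on the Y chromosome were listed in replicate 1 of each group (6 in SISC and 8 in LISC) and in neither replicate 2 library.

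The starts of the 7 genes fell into 3 patterns, and promoter sequences of genes that show them are given so that each pattern can be read beside its letters. The windows are 300 bases long and reach 50 bases past the start (RefSeq, GRCm38.p6, the coordinates of mm10), and all 7 members had one. Capitals mark matches on either strand to AGATAA, which factors of the GATA family bind, to CNATAAA for CDX factors, to CAAAGNNCA for HNF4, and to the nuclear receptor direct repeats with a 1-base gap (DR1, as RXR dimers bind) and a 3-base gap (DR3, as the vitamin D receptor binds). CNATAAA also takes the letters of a TATA box.
Rbp2, chr9:98490287-98490586, plus strand: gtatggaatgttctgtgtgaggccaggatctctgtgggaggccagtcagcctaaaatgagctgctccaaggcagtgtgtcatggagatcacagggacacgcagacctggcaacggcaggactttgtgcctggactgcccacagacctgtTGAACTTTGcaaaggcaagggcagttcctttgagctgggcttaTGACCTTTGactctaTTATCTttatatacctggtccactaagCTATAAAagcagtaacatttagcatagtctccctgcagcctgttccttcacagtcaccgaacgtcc
Bco1, chr8:117095615-117095914, plus strand: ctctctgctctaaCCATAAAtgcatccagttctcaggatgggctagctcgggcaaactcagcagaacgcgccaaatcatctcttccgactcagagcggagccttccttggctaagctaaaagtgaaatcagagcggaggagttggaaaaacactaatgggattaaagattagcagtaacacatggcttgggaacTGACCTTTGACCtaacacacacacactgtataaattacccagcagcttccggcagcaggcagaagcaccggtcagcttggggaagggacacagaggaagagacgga
Trpv6, chr6:41636356-41636655, minus strand: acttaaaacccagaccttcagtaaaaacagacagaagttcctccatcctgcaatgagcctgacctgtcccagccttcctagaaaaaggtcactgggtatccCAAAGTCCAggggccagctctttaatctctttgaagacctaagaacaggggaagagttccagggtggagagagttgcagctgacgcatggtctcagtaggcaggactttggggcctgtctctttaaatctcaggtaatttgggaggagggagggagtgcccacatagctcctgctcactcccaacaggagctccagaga
S100g, chrX:162964550-162964849, minus strand: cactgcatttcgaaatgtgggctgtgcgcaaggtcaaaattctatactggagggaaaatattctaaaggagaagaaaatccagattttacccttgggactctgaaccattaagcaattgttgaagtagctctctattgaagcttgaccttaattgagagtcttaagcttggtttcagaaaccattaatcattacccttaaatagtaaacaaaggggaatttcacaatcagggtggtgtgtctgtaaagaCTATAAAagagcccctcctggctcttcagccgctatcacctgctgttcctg
Cubn, chr2:13491827-13492126, minus strand: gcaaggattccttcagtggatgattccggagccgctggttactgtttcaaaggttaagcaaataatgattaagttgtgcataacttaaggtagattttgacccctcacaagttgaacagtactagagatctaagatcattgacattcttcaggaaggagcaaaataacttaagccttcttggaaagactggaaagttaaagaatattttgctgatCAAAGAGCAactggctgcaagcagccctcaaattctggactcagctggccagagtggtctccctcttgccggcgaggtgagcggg

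The Rbp2 window, of which 249 of 300 bases lay in a SISC-only region, held 4 matches. The HNF4 letters began 101 and 58 bases before the start, the GATA letters 43 bases and CTATAAA 16 bases before it. The Bco1 window, inside a region of all 4 libraries, held the HNF4 letters 56 bases before the start, where they overlapped the direct repeat with the 1-base gap, and CCATAAA 237 bases before it. Trpv6, with no region over its window, held 1 match, the HNF4 letters 149 bases before the start. S100g held CTATAAA beginning 1 base before the start, and Cubn held the HNF4 letters 35 bases before it. The windows of Slc46a1 and Amn, each inside a region of all 4 libraries, are not printed. Slc46a1 held 1 match, CAATAAA 218 bases before the start, and Amn held no match. Of 32851 promoter windows in the table, 6.36% held the HNF4 letters, 11.2% the GATA letters, 10.9% the CDX letters, 1.26% the repeat with the 1-base gap and 0.7% the repeat with the 3-base gap, of which these 5 windows held none. A match is a description of these letters and not a site.

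Of the 7 starts, 5 were called in every library, against 62.1% of all 21883 protein-coding genes. Rbp2 was called in both SISC libraries alone, as were 1.28% of genes, and Trpv6 in LISC replicate 2 alone, as were 0.247%. No start of the 7 was without a call in every library, as were 32.4% of genes, and Trpv6 was the 1 start of neither shared nor group-only pattern, as were 3.63%. At Rbp2 the strongest region at the start had a −log10 q of 23.7 and 13.8 in SISC replicates 1 and 2 and no peak in either LISC library. At Trpv6 the single peak, with a −log10 q of 3.24 in LISC replicate 2, lay 228 bp inside the gene and near the lower limit of that list, which was 2.35. Slc46a1 had 139 and 108 in SISC and 103 and 76.8 in LISC, and Amn 135 and 122 in SISC and 78.6 and 44.7 in LISC. S100g had 70.3 and 70.2 in SISC and 22.1 and 17.6 in LISC. Bco1 had 63.0 and 53.7 in SISC and 38.4 and 32.5 in LISC. At Slc46a1, Amn, S100g and Bco1 both SISC values lay above both LISC values, although each value depends on the depth of its own library. The median −log10 q of the whole lists was 36.1 and 32.8 in SISC and 35.6 and 26.2 in LISC. Of all regions called in all 4 libraries, 30.4% ranked higher in both SISC libraries than in both LISC libraries, and 25.4% lower. Ranked among the regions called in all 4 libraries, the Slc46a1 start stood at 73.2% and 66.6% in SISC and 62.9% and 67.7% in LISC, so the groups overlapped there. Cubn ran the other way, with 6.23 and 38.4 in SISC and 53.7 and 42.4 in LISC.

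**Figure D1:**
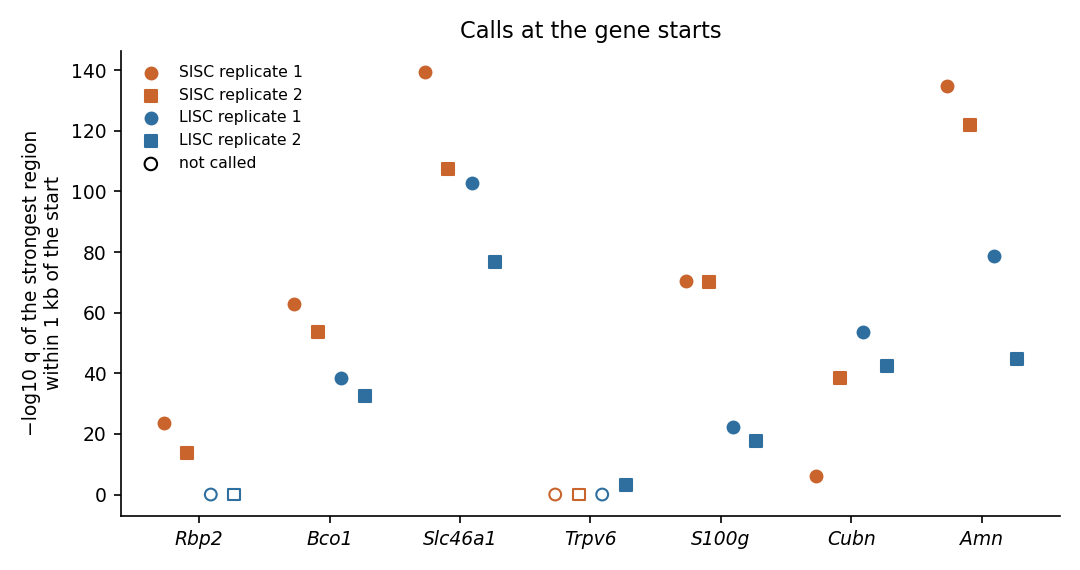
The −log10 q of the strongest region within 1 kb of each start, 1 point per library, with open points at 0 for libraries that had no peak there. Rbp2 has peaks in the SISC libraries alone (23.7 and 13.8), Trpv6 has 1 weak peak in LISC replicate 2, and at Cubn both LISC points (53.7 and 42.4) lie above both SISC points (6.23 and 38.4).

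As a set the 7 genes did not stand apart from the genome in their share of group-only regions. SISC-only regions numbered 13, or 8.18% of 159, beside 7.96% of all regions, and LISC-only regions 14, or 8.81%, beside 10.2%. Another 75 (47.2%) were called in all 4 libraries, beside 48.2%, and 57 had some other pattern, beside 33.7%. The group-only regions were divided unevenly among the genes. Rbp2, Bco1 and Trpv6 had more SISC-only than LISC-only regions, as did 34.5% of all genes, and Slc46a1, S100g, Cubn and Amn more LISC-only, as did 32.2%. Rbp2, Bco1 and Trpv6 had SISC-only and no LISC-only regions, as did 18.7% of all genes. Amn had LISC-only and no SISC-only regions, as did 16.4%. The vitamin A genes had 8 SISC-only and 0 LISC-only regions, folate 2 and 5, calcium 2 and 3, and vitamin B12 1 and 6. The number of regions called was 101 and 131 in SISC and 106 and 112 in LISC, a mean of 116 ± 21.2 and 109 ± 4.24 (SD, n = 2 each; exact two-sided permutation p = 1). With 2 libraries against 2 the smallest p this test can give is 0.333. Of 159 regions, 35 were called in a single library, beside 21.4% of regions in the genome. Of these 35, 22 were from SISC replicate 2. The part of SISC replicate 2 in the single-library regions of the genome was not counted. That library had the most regions of the whole series, 91060, beside 78033 in SISC replicate 1 and 86171 and 85723 in LISC. Without SISC replicate 1, when SISC replicate 2 alone defines the group, SISC-only regions numbered 35 of 156 (22.4%), beside 17.7% of all regions.

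**Figure D2:**
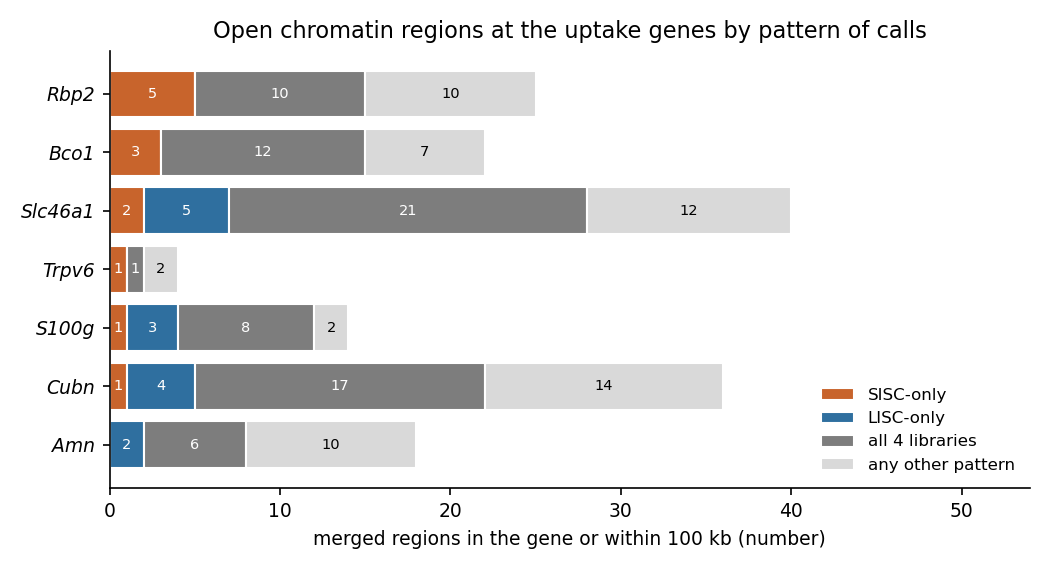
The number of merged regions in each gene or within 100 kb of it, divided by the libraries that called them. Rbp2 and Bco1 have SISC-only regions (5 and 3) and no LISC-only region, Amn has 2 LISC-only regions with no SISC-only counterpart, and Trpv6 has 4 regions in all. Among all genes, 18.7% have SISC-only and no LISC-only regions, and 16.4% the reverse.

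Rbp2 encodes the retinol-binding protein of the absorptive epithelium and lies on chromosome 9 (98490537 to 98509771, plus strand). It had 25 regions, 5 of them SISC-only and none LISC-only; 1.41% of all genes had 5 or more SISC-only and no LISC-only region. The libraries called 16 and 23 regions in SISC and 11 and 13 in LISC (exact two-sided permutation p = 0.333, the smallest possible). The strongest SISC-only region, chr9:98466559-98467442, lay 23.1 kb upstream of the start in no annotated protein-coding gene. Its −log10 q was 189 in SISC replicate 1 and 245 in SISC replicate 2, with fold enrichments of 14.3 and 14.9. By mean percentile within the lists it stood at or above 99.9% of all SISC-only regions. The assignment to Rbp2 rests on the 100 kb window, and the end of another gene lay nearer to this region, at 20.0 kb.

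The region at the Rbp2 start, chr9:98490131-98490535, ended 2 bp before the annotated start and had fold enrichments of 3.27 and 2.48 in SISC. Another SISC-only region, chr9:98498533-98499146, lay inside the gene 8.0 kb from the start, with a −log10 q of 14.9 and 47.7. Both were weaker than the upstream region in each SISC library. The remaining pair, with a −log10 q of 5.67 to 12.6, lay 45.0 kb upstream and 58.4 kb downstream. The upstream one lay inside another gene, and the downstream one was nearest to Copb2, a coat protein subunit gene. The gene body also held shared regions. The region at chr9:98491695-98493746, starting 1.2 kb inside the gene, was shared by all libraries, and its −log10 q was 71.6 and 38.8 in SISC and 81.5 and 55.0 in LISC. A start defined within 2500 bp therefore counts Rbp2 as called in every library.

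When each list was held to its 41721 strongest peaks, Rbp2 had 2 SISC-only regions and its start was called in no library. Its balance (SISC-only minus LISC-only) was 5, and it was 11 with SISC replicate 1 left out, 6 with SISC replicate 2 left out, 4 with LISC replicate 1 left out and 5 with LISC replicate 2 left out. The starts most like that of Rbp2, by Euclidean distance over the 4 within-list percentiles among 280 other genes called in the SISC libraries alone, were those of Rhbdl1 (2.44 percentile points), Stk32b (2.92) and Qprt (4.90).

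**Figure D3:**
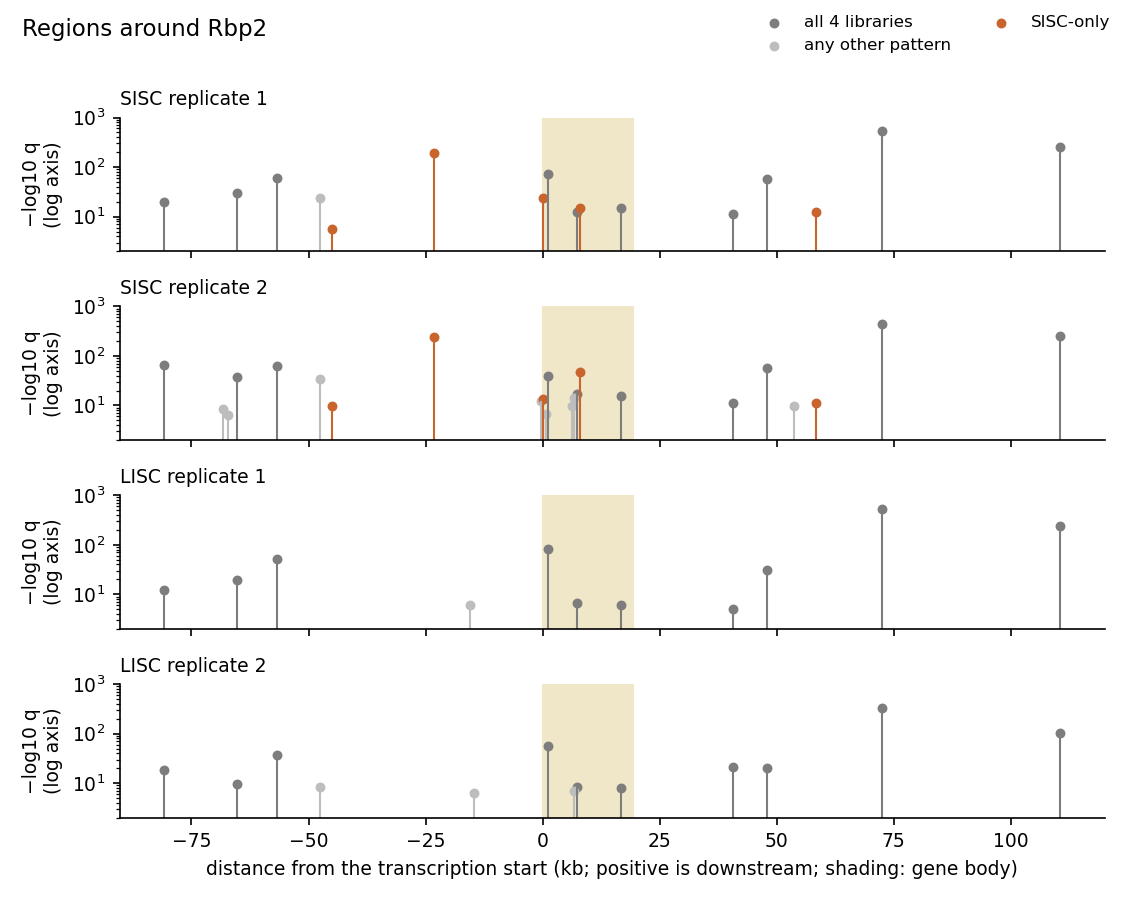
Regions around Rbp2 in each library, with the distance from the start in kb on the x axis and the −log10 q on a log axis; shading marks the gene body. The orange stem at 23.1 kb upstream reaches 189 and 245 in the SISC libraries and has no counterpart in either LISC library, while the tallest stem, 72.5 kb downstream, is called in all 4 libraries.

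Bco1, the enzyme that splits beta-carotene into retinal, lies on chromosome 8 (117095851 to 117133720, plus strand) and had 22 regions. Its 3 SISC-only regions lay outside the gene, 42.4 and 17.1 kb upstream within Pkd1l2 and 77.0 kb downstream. They were weak, with a −log10 q of 6.16 to 17.8, and none passed a −log10 q of 10 in both SISC libraries. The libraries called 17 and 20 regions in SISC and 12 and 15 in LISC (exact two-sided permutation p = 0.333). Of 9 regions in the gene body, 8 were called in every library. The balance of 3 was 6 with SISC replicate 1 left out, 4 with SISC replicate 2 left out, 2 with LISC replicate 1 left out and 4 with LISC replicate 2 left out.

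Within the Bco1 gene body, neighbouring regions ranked in opposite order. To set libraries side by side, each of the 57829 regions called in all 4 libraries was ranked by −log10 q within its library, as a percent of these regions, so that each library ranks the same regions. The region chr8:117109843-117110294, 13978 bp past the start given in the promoter table, ranked at 55.2% and 56.4% in SISC and 25.6% and 29.8% in LISC. The next region, chr8:117111679-117112734, ranked at 43.5% and 26.2% in SISC and 61.5% and 59.9% in LISC. The groups did not overlap at either region, and the regions were 1384 bp apart. Over all shared regions, 30.4% had both SISC ranks above both LISC ranks and 25.4% both below. A difference as large as at the first region was held towards SISC by 3.79% of shared regions. One as large as at the second was held towards LISC by 6.97%. At the gene start the ranks were 50.2% and 42.2% in SISC and 32.7% and 38.6% in LISC.

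Slc46a1, the proton-coupled folate transporter, lies on chromosome 11 (78465701 to 78471945, plus strand) in a dense stretch that holds 12 genes within the 100 kb window. It had 40 regions, and its density of 19.4 regions per 100 kb exceeded that of 97.3% of genes. Only 1 region overlapped the gene itself, the one at its start, called in all libraries. Of the 7 group-only regions, 1 had Slc46a1 as its nearest gene end. This LISC-only region, chr11:78452697-78453209, lay 12.5 kb upstream with a −log10 q of 61.0 and 36.7 in LISC and fold enrichments of 8.05 and 5.61. By mean percentile it stood at or above 88.2% of LISC-only regions.

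A region called in all libraries, chr11:78453545-78454042, began 335 bp from it and was ordered the other way. Its −log10 q was 77.2 and 47.2 in SISC and 28.7 and 10.9 in LISC, and its rank 56.7% and 37.6% in SISC and 24.8% and 8.93% in LISC. A rank difference this large towards SISC was held by 3.13% of the shared regions. The region 1.6 kb before the gene start likewise ranked higher in SISC, at 16.5% and 38.7%, than in LISC, at 10.6% and 3.14%. The other LISC-only regions were nearest to Foxn1, Slc13a2 (a dicarboxylate transporter gene) and Tmem97, and the SISC-only pair, with a −log10 q of 5.27 to 14.2, lay in Slc13a2 and Tnfaip1. The balance of -3 was -1 with SISC replicate 1 left out, -3 with SISC replicate 2 left out, -2 with LISC replicate 1 left out and -3 with LISC replicate 2 left out, and it was 2 with each list held to its 41721 strongest peaks.

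Trpv6, the apical calcium channel of the duodenum, lies on chromosome 6 (41620619 to 41636405, minus strand) and had the sparsest surroundings of the 7 genes. Only 4 regions lay in the gene or within 100 kb, and 18.7% of all genes had 4 or fewer. A single region was called in all libraries, chr6:41604369-41605990, 30.4 kb from the start and beyond the 3′ end of the gene, over Ephb6, a receptor gene of the Eph family. Its −log10 q was 59.5 and 85.0 in SISC and 91.6 and 53.0 in LISC, and the groups overlapped. The SISC-only region, 59.5 kb from the start on the same side, had a −log10 q of 3.59 and 9.56. The other regions, at the start and 7.0 kb before it, were called in LISC replicate 2 alone. The balance of 1 was -1 without LISC replicate 1 and 1 without each of the other libraries. The starts most like that of Trpv6 among 53 other genes called in LISC replicate 2 alone were Ntsr1 (0 percentile points), Inpp5d (0.261) and Clec2m (0.261). Trpv5, the neighbouring calcium channel gene known from the kidney, had 1 region in the gene or within 10 kb and no region at its start in any library.

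S100g, the calcium carrier calbindin-D9k, lies on the X chromosome (162961992 to 162964599, minus strand) and had 14 regions. Its start was called in every library and ranked higher in both SISC libraries. The region chrX:162964343-162964846 covers the start, and its fold enrichment was 7.74 and 6.95 in SISC and 4.94 and 3.86 in LISC. Among the shared regions it ranked at 53.8% and 51.8% in SISC and 18.4% and 19.4% in LISC, a mean difference of 33.9 percentage points; 2.25% of the shared regions differed by as much or more in this direction. With each list held to its 41721 strongest peaks, the S100g start was called in both SISC libraries and in neither LISC library. The share of all genes with that pattern under this cut was not counted. The next region upstream, 2.7 kb before the start, had a −log10 q of 84.6 and 80.4 in SISC and 85.1 and 39.7 in LISC, with overlapping ranks.

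All 3 LISC-only regions of the S100g window lay upstream in Ctps2, a CTP synthase gene, at 23.8, 57.0 and 60.7 kb, with a −log10 q of 5.45 to 23.1. The 1 SISC-only region, chrX:162872211-162873161, lay 91.4 kb downstream in Syap1 with a −log10 q of 35.9 and 34.2 and fold enrichments of 7.02 and 6.42. The balance of -2 was -1 when either SISC library was left out, -2 when either LISC library was, and 1 among the strongest peaks. The libraries called 10 and 10 regions in SISC and 11 and 11 in LISC (exact two-sided permutation p = 0.333).

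Cubn, the cubilin chain that binds vitamin B12 with intrinsic factor, lies on chromosome 2 (13276338 to 13491876, minus strand) and is the longest of the 7 genes at 215.5 kb. It had 36 regions, 15 of them in the gene body. Of these 36, 4 were LISC-only and 1 SISC-only. LISC-only regions lay inside the gene, at 133.4 and 197.4 kb from the start, and upstream, at 34.1 kb within Trdmt1 and at 66.3 kb. The strongest was chr2:13525972-13526497, 34.1 kb upstream, with a −log10 q of 64.9 and 29.8 in LISC. The SISC-only region, chr2:13274176-13274451, lay 1.9 kb beyond the 3′ end with a −log10 q of 11.4 and 24.8.

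More of the shared regions of Cubn ranked lower than higher in SISC. Of 17 shared regions, 9 had both SISC ranks below both LISC ranks, 2 had both above and 6 overlapped. Over all shared regions 25.4% had both SISC ranks below and 30.4% both above. The region with the widest difference, chr2:13395992-13397547, lay in the gene 94.3 kb from the start. Its −log10 q was 14.8 and 7.80 in SISC and 80.1 and 87.1 in LISC, and its ranks were 11.7% and 1.78% in SISC and 55.2% and 71.6% in LISC. Over all shared regions, 0.553% differed by as much towards LISC. The widest difference in the other direction, 38.8 percentage points, was at chr2:13206364-13207158, which lay beyond the 3′ end of Cubn in Rsu1 and ranked at 44.0% and 54.8% in SISC and 16.3% and 4.95% in LISC.

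Nearer the Cubn start, the region over the last stretch before it, chr2:13491904-13492198, was called in SISC replicate 1 and both LISC libraries, with a −log10 q of 6.23 in SISC and 15.7 and 12.6 in LISC. The region 947 bp before the start was called in all libraries at 5.67 and 38.4 in SISC and 53.7 and 42.4 in LISC. A region 17.2 kb upstream was called in SISC replicate 2 at 8.96 and in LISC at 89.1 and 50.6, so it was not LISC-only although both LISC values exceeded the SISC value. The libraries called 22 and 30 regions in SISC and 27 and 28 in LISC (exact two-sided permutation p = 1). With each list held to its 41721 strongest peaks, the Cubn start was called in neither SISC library and in both LISC libraries. How many of all genes show that pattern under this cut was not counted. The balance of -3 was 1 with SISC replicate 1 left out, -5 with SISC replicate 2 left out, -3 with LISC replicate 1 left out and -1 with LISC replicate 2 left out.

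**Figure D4:**
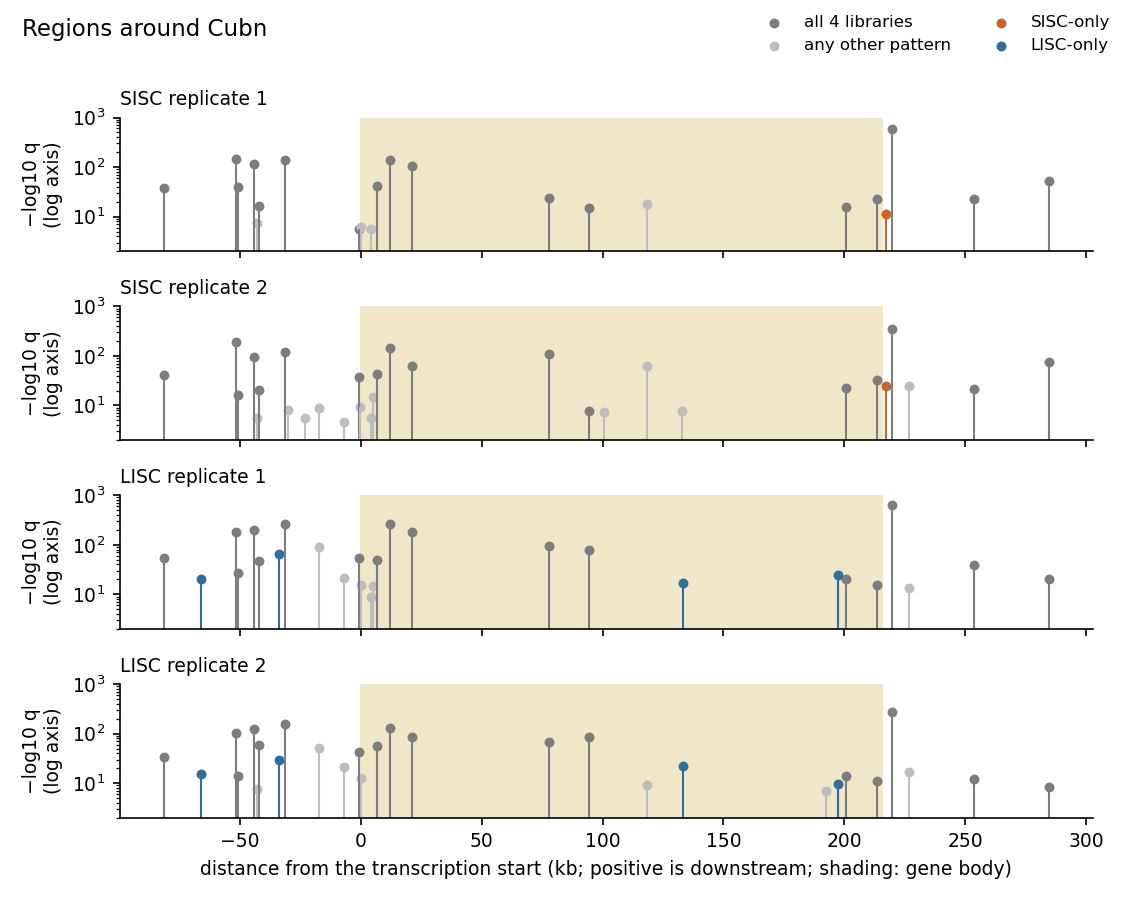
Regions around Cubn in each library, with the distance from the start in kb on the x axis and the −log10 q on a log axis; shading marks the gene body. The blue stems (LISC-only) stand 66.3 and 34.1 kb upstream and 133.4 and 197.4 kb inside the gene, and the grey stem 94.3 kb inside the gene reaches 80.1 and 87.1 in the LISC libraries against 14.8 and 7.80 in the SISC libraries.

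Amn, the transmembrane chain that carries cubilin to the cell surface, lies on chromosome 12 (111271096 to 111276426, plus strand) and had 18 regions. Its start was ordered opposite to that of Cubn. The region chr12:111270680-111272186 over the start ranked at 72.4% and 70.6% in SISC and 54.6% and 49.5% in LISC, and the next, 1.4 kb inside the gene, at 36.4% and 29.7% in SISC and 12.3% and 24.5% in LISC. Both LISC-only regions were weak, at a −log10 q of 8.39 and 6.38 within the gene and 13.2 and 11.4 at an end of Cdc42bpb, a kinase gene. The libraries called 7 and 14 regions in SISC and 11 and 12 in LISC (exact two-sided permutation p = 1). The balance of -2 was 3 without SISC replicate 1, -4 without SISC replicate 2, -3 without LISC replicate 1, -2 without the other LISC library and 1 among the strongest peaks.

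Over all 7 genes, 75 regions were called in every library. Both SISC ranks lay above both LISC ranks at 30 of them and below at 18, while 27 overlapped. Over all 57829 shared regions, 30.4% had both SISC ranks above and 25.4% both below. The median rank difference was 2.86 percentage points over the 75 regions, beside 0.721 over all shared regions. By gene, the regions ranked above and below in SISC were 6 and 1 of 10 at Rbp2, 5 and 3 of 12 at Bco1, 10 and 4 of 21 at Slc46a1, 0 and 0 of 1 at Trpv6, 3 and 0 of 8 at S100g, 2 and 9 of 17 at Cubn, and 4 and 1 of 6 at Amn. Cubn was the sole member with more regions ranked lower than higher in SISC. Regions of 1 gene are not independent of each other, and most lay nearer to other genes: of the 75, 30 had the member's end as the nearest gene end.

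**Figure D5:**
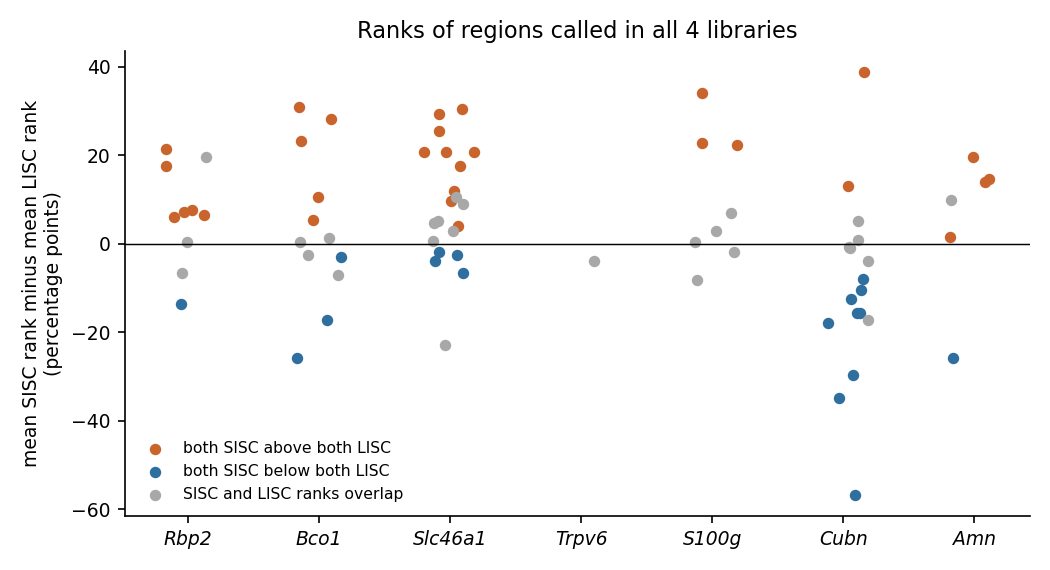
Each point is 1 of the 75 regions called in all 4 libraries, placed at its mean SISC rank minus its mean LISC rank in percentage points, with points spread sideways for legibility. Points of Cubn reach down to -56.7, and the highest point at S100g, at 33.9, is the region over its start.

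The group-only regions of the set were close in median width to those of the genome. The median width was 454 bp for the 13 SISC-only and 495.5 bp for the 14 LISC-only regions, beside 457 bp and 484 bp in the genome, and 864 bp for the 75 shared regions beside 888 bp. Of the 27 group-only regions, 4 overlapped a member gene, 6 lay within 10 kb of one, and 8 had a member's end as the nearest gene end. The upstream region of Rbp2 was the sole one of the 27 at or above 90% of its kind in the genome by mean percentile.

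Other genes of the same pathways were counted in the gene and within 10 kb. All 54 listed genes were in the gene table. They held 27 SISC-only (7.24%), 31 LISC-only (8.31%) and 191 shared regions (51.2%) of 373. The shares of all regions were 7.96%, 10.2% and 48.2%. Of the 54 genes, 17 had more SISC-only, 8 more LISC-only regions and 29 neither, with a median balance of 0. Among all genes 17.7% had more SISC-only and 17.1% more LISC-only regions, and the median balance was 0. The first of these shares was higher among the 54 genes than among all genes and the second lower, which was not tested. Starts were called in all libraries at 40 of the 54 genes and in none at 8, beside 62.1% and 32.4% of all genes. For genes with no entry in the promoter table either annotated end was used.

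Of 12 vitamin A genes, 4 had more SISC-only and 2 more LISC-only regions. Aldh1a1, a retinaldehyde dehydrogenase gene, had 1 SISC-only and 4 LISC-only regions, and Cd36, a fatty acid and carotenoid receptor gene, and Cyp26b1, a retinoic acid hydroxylase gene, had 2 and 1 each. The starts of Isx, an intestinal homeobox repressor of Bco1, and of Scarb1, a carotenoid receptor gene, were called in all libraries, and neither gene had a group-only region.

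Of 12 calcium and vitamin D genes, 3 had more SISC-only and 2 more LISC-only regions. Slc8a1, a sodium-calcium exchanger gene, had 14 LISC-only and 0 SISC-only regions among 18, and its start was called in the LISC libraries alone, as at 0.621% of genes. It held 14 of the 18 LISC-only regions of this list. Casr, the calcium-sensing receptor gene, had 3 regions of the LISC-only kind, and Rxra, the partner of the vitamin D receptor, 2 SISC-only and 1 LISC-only. Vdr, the vitamin D receptor gene itself, had 20 regions, 10 of them in all libraries and none group-only.

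Of 10 vitamin B12 genes, 3 had more SISC-only and 2 more LISC-only regions, led by Lrp2, the megalin gene whose product works with cubilin, with 3 SISC-only regions, and by the lysosomal cobalamin transporter gene Abcd4 with 2; neither had a LISC-only region. Mmachc, a cobalamin-processing gene, had 1 SISC-only region, and Cd320, the transcobalamin receptor gene, and Dab2, an endocytic adaptor gene, had 1 LISC-only region each. Of 10 folate genes, Fpgs and Abcc3 had 1 SISC-only region each and Ggh had 1 LISC-only region. Slc19a1, the reduced folate carrier gene, had 6 regions, all shared. Of 10 genes for other water-soluble vitamins, 5 had more SISC-only and 0 more LISC-only regions. Slc23a2, a vitamin C transporter gene, and Btd, the biotinidase gene, had 2 SISC-only regions each and no LISC-only region. Slc23a1, another vitamin C transporter gene, had 1 SISC-only region and the 1 LISC-only region of this list.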

How the data were processed

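ATAC-seq peaks were analysed in 2 SISC and 2 LISC libraries. The submitters' processing notes name mm10 and, with no roles, bedtools, MACS2 2.2.7.1, Picard, Bowtie2 2.3.4.1 and cutadapt 3.4. The sources used here give no setting for Tn5 shifting, duplicates or the calling threshold. The authors deposited a peak list for each library. The lists are in the caller's narrowPeak format, in which the authors deposited for each peak a fold enrichment at the summit (a ratio over the local background). The authors' deposited −log10 p and −log10 q come from the same caller, and so does the deposited score, which for most peaks is 10 times the −log10 q without its decimals. These values move with sequencing depth, which is unknown, and served to describe and rank peaks within a list. Overlapping peaks of all lists were merged, and a region counted as called in a library that had any peak in it. Genes came from RefSeq (GRCm38.p6, 21883 protein-coding genes), with starts from the promoter table for 17491 and either end for the other 4392. Counts stand beside the same share over all regions or genes, and the number called per library was compared by an exact two-sided permutation test over 6 assignments. The members, lists and rule for named genes were chosen with earlier results of these data known. The rule takes all members, the genes nearest their group-only regions, and per pathway list up to 3 genes with most group-only regions (ties included) and any with a group-only start. Some genes that the rule takes are not reported here. Other genes named (Isx, Scarb1, Vdr, Trpv5, Slc19a1) were chosen after their values were seen, and so was the ranking of shared regions. Alternatives were a 50% cover, equal lists of the strongest peaks, a −log10 q of at least 10, narrower windows, other start distances, leaving out each library and, added after the lists were read, an exact test within replicate numbers. Merging was tested on simulated data and gave the same regions as bedtools 2.31.1. Software was matplotlib 3.10.9, scipy 1.17.1, pandas 2.3.3 and numpy 2.4.6 under Python 3.11.15.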

Additional observations from a re-analysis of the deposited data

How the results depend on the processing

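With the replicate number as a block, the SISC minus LISC difference in regions called was -5 within number 1 and 19 within number 2 over the 7 genes (exact paired two-sided permutation p = 1), 5 and 10 at Rbp2 and 5 and 5 at Bco1 (p = 0.5 each, the smallest that 2 pairs allow), and no p for a gene passed 0.05 with or without the block. The labels tie the numbers to no shared animal or day, and the deviations of same-numbered libraries had a correlation of -0.00625 over the ranks of 57829 shared regions, although Y-chromosome peaks were listed in replicate 1 of both groups alone. The alternatives for the counts of regions and starts were planned, and those for the ranks and the block were added after the lists were read. SISC-only member regions, 13 as reported, numbered 3 within 10 kb and 3 when a region had to lie in the gene or nearest to its end. LISC-only member regions, 14 as reported, numbered 8 within 50 kb, 3 within 10 kb, 5 in the gene or nearest to its end and 6 with each list held to its 41721 strongest peaks. Regions called in all libraries, 75 as reported, numbered 48, 28, 30 and 36 under the same 4 settings. These settings take fewer regions or peaks by construction. Starts called in every library fell to 2 of 7 among the strongest peaks, against 5 as reported. Under that cut S100g was called in the SISC libraries alone, Cubn in the LISC libraries alone and Bco1 in 3 libraries. The shares of all genes with these patterns under the cut were not counted. With 1 library left out, SISC-only regions ranged from 16 to 35, LISC-only regions from 15 to 21, those called in all remaining libraries from 76 to 82 while 5 starts were called in every case. The balance per gene reversed among the strongest peaks at Slc46a1 (2), S100g (1) and Amn (1), without SISC replicate 1 at Cubn (1; -5 to 1 over the libraries left out in turn) and Amn (3; -4 to 3), and without LISC replicate 1 at Trpv6 (-1; -1 to 1). The other 64 of 70 balances kept their direction or came to 0. Bco1 and Trpv6 came to 0 with a −log10 q of at least 10, within 10 kb and in the gene or nearest to its end. Trpv6 also came to 0 among the strongest peaks, Slc46a1 and S100g within 10 kb, and Amn with a 50% cover. Shared regions ranked higher in SISC numbered 23 to 39 and those ranked lower 17 to 27 over 6 alternatives each. A peak that was not called may lie below the threshold of its library.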
